A study of Mus musculus with 4 samples.

Results

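The clade B serpins examined here are Serpinb1a, Serpinb2, Serpinb5, Serpinb6a and Serpinb11, 5 named genes among the 19 clade B rows (symbols that start with Serpinb) and the 25071 gene rows of single-cell libraries from mouse vaginal epithelium. Their levels were compared between surgically ovariectomised (OVX) C57BL/6 mice and C57BL/6 mice named WT in the labels, which kept their ovaries and so their main supply of oestrogen and progesterone. Each group has 2 Drop-seq libraries, and each library is a pool of 5 mice. Drop-seq captures single cells with barcoded beads in droplets and counts transcripts by unique molecular identifiers (UMIs). Because the design text speaks of pools run in duplicate, the 2 libraries of a group may or may not come from separate pools, so a p-value here reflects library-to-library spread that could be technical only.

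Serpins are proteins that trap a protease by offering a bait loop which the protease cuts, after which the pair stays joined. Most clade B members lack a secretion signal and act inside the cell or at sites where cells are damaged, and many are made by stratified epithelia and by leukocytes. In the vagina, oestrogen drives a thick, cornifying stratified epithelium, and its withdrawal leaves a thin epithelium whose upper cells are mucous or simple. Among the 5 genes, Serpinb5 encodes maspin, an epithelial serpin that does not inhibit proteases in the usual way. Serpinb2 encodes plasminogen activator inhibitor 2, an inhibitor of urokinase. Serpinb1a and Serpinb6a encode inhibitors of neutrophil-type serine proteases such as elastase and cathepsin G, and Serpinb11 encodes an epithelial serpin that inhibits trypsin-like proteases in the mouse.

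The OVX libraries held 991112 and 1684967 UMIs and the WT libraries 5845107 and 1934634 UMIs. After cells with fewer than 200 genes or over 20% mitochondrial UMIs were dropped, cells numbered 1573 and 1907 in OVX and 2979 and 1987 in WT, and 9 of their barcodes occurred in more than 1 library. OVX library 1 stood apart with 1427 of its 3000 barcodes failing that filter, against 93 in OVX library 2 and 21 and 13 in the WT libraries. Mitochondrial transcripts took a median of 8.97% and 9.69% of a cell's UMIs in OVX against 4.00% and 3.85% in WT. Malat1, a nuclear RNA, took 2.73% and 1.959% of all UMIs in OVX against 0.339% and 0.467% in WT. The part of these shares in the OVX differences below was not tested. All 14 basal keratinocyte markers had UMIs in every library, as an epithelial sample should. Their summed level was 8802 and 9509 CPM in OVX against 44897 and 26306 in WT. The sum of 15 suprabasal markers was 3162 and 2709 CPM in OVX against 16132 and 20227 in WT. The sum of 15 luminal markers went the other way, at 2211 and 2334 against 575 and 526. The part of these sums in the whole-library differences below was not tested. The summed level of 12 macrophage markers was 784 and 451 CPM in OVX against 114 and 127 in WT. The summed level of 8 fibroblast markers was 344 and 251 CPM in OVX against 3.93 and 31.0 in WT, where 3 and 0 of the 8 were at 0.

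Cells were grouped by a clustering that used no Serpinb gene, and clusters were named within each group from marker lists. Basal-like cells numbered 339 and 970 in OVX, from cluster 1, and 941 and 653 in WT, from clusters 5 and 6, of which cluster 5 came mostly from WT library 1 and cluster 6 mostly from WT library 2. OVX held a luminal-like cluster of 404 and 691 cells. Its name is a narrow call, with 8 luminal markers raised against 6 suprabasal and 1 cornified marker, and Krt13 among its leading genes. WT held suprabasal-like clusters of 1291 and 541 cells and a proliferating cluster of 654 and 353 cells. A cluster led by ribosomal pseudogenes was left unnamed. It held 781 and 133 OVX cells and 64 and 432 WT cells.

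The 5 genes lie in the 2 mouse clade B clusters. Per GENCODE vM21 on GRCm38 (mm10), Serpinb5 is at chr1:106861173-106883348, Serpinb11 at chr1:107361198-107380475 and Serpinb2 at chr1:107511423-107535478, all on the plus strand. Serpinb1a is at chr13:32842092-32851185 and Serpinb6a at chr13:33917918-34002794, both on the minus strand. The Serpinb2 locus overlaps Serpinb10 on the same strand. Of the 50-base words in the last 500 bases of Serpinb2 transcripts, 23.4% also occur in Serpinb10. Serpinb2 counts are therefore uncertain. A share of words is not a share of reads, so the size of that uncertainty is not known. The shared share was 4.59% for Serpinb1a, 1.22% for Serpinb6a and 0% for Serpinb5 and Serpinb11. Serpinb6a also overlaps 3 genes on the opposite strand, Nqo2, Ripk1 and 1110046J04Rik, and whether counting used the strand is not given in the sources used here. Levels are UMIs per 1000000 UMIs of the library or cell class, written CPM.

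The 250 bases before a RefSeq start (GRCm38.p6) are shown for the 3 chromosome 1 genes because these were lower together in OVX basal-like cells. Capitals mark the letters TGANTCA, where N is any base, which reads as the same pattern on both strands. This is wider than the usual core of AP-1 factors, which has C or G at N. The matches in these 3 genes all have A or T there, whereas those in Serpinb7 and Serpinb8 are TGAGTCA. The windows are chr1:106860925-106861174 for Serpinb5, chr1:107511173-107511422 for Serpinb2 and chr1:107362064-107362313 for Serpinb11, on the plus strand, each read 5′ to 3′.
Serpinb5: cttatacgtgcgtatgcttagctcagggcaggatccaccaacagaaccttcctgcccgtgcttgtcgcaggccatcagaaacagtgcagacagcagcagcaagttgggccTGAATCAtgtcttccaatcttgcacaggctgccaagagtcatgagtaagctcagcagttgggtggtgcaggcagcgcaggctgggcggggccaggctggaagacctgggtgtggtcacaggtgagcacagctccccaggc
Serpinb2: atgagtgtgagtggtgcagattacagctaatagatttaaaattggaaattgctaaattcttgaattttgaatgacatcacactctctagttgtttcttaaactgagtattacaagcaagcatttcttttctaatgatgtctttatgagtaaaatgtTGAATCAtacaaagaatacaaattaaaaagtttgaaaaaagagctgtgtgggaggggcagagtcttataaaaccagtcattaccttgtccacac
Serpinb11: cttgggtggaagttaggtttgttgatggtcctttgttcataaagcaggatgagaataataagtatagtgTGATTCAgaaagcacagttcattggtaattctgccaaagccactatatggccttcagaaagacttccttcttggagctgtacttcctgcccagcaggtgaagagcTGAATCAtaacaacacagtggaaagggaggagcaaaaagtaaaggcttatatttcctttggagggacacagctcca
The match begins 140 bases before the start in Serpinb5 and 94 in Serpinb2, and Serpinb11 has 2 matches, at 181 and 76 bases. Serpinb2 has another RefSeq start, with its window at chr1:107511260-107511509, and the same match begins 181 bases before that start. The Serpinb11 window lies inside the GENCODE gene, which begins at chr1:107361198, so the annotations differ on its start. The letters occur in 6.75% of the 32851 mouse promoter windows of this length and in 7.82% of the 27025 genes with one. Among clade B genes with a window they occur in 7 of 11 on chromosome 1 and 0 of 15 on chromosome 13, where Serpinb6a lies. The palindromic oestrogen response element (GGTCA, any 3 bases, TGACC) was found in 0 of the 26 clade B genes with a window, against 0.0666% of all genes. The motifs were chosen after the sequences had been seen, and a match is a description of letters, not a bound site.

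In whole libraries, 1 of the 5 genes, Serpinb5, passed the test and was lower in OVX, where 6.28% of the 11545 genes tested were called in either direction, 3.06% lower and 3.22% higher (edgeR quasi-likelihood test, adjusted p under 0.05). All 5 genes passed the filter on low counts. Serpinb5 had 99 and 143 UMIs in the OVX libraries and 3081 and 1346 in the WT libraries. Its level was 99.9 and 84.9 CPM in OVX against 527 and 696 CPM in WT. Both OVX libraries lay well below both WT libraries, and the log2 fold change was -2.86 ± 0.43 (SE), or 7.27-fold lower (edgeR adjusted p = 0.00919). The call was lost without OVX library 1 (adjusted p = 0.0996) and without OVX library 2 (adjusted p = 0.124), with the log2 fold change at -2.91 and -2.80. With 1 OVX library left, that library is assumed to vary like the WT pair, so these lost calls do not show a smaller difference. A library sum cannot tell fewer cells of a type from less RNA per cell.

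The other 4 genes did not pass in whole libraries. Serpinb2 stood at 25.2 and 4.75 CPM in OVX against 74.3 and 77.5 in WT. The groups did not overlap, yet the OVX libraries, with 25 and 8 UMIs, differed from each other more than the WT libraries did (log2 fold change -2.58 ± 0.65, edgeR adjusted p = 0.0570). DESeq2 gave an adjusted p of 0.00413 for Serpinb2, while restricting the sums to cells that passed the filter gave 0.109 and to epithelial-like clusters 0.260. The epithelial-like sums held named classes only. They thus also left out the unnamed cells, 796 and 184 in OVX and 79 and 433 in WT. With no filter on low counts the edgeR adjusted p was 3.63e-05. Serpinb2 passed without OVX library 1 (edgeR adjusted p = 0.00449), without WT library 1 (3.01e-06) and without WT library 2 (3.69e-07), and had an adjusted p of 0.457 without OVX library 2. Serpinb11 went the other way, at 289.6 and 331 CPM in OVX and 123 and 115 in WT (log2 fold change 1.25 ± 0.39, edgeR adjusted p = 0.108). In the unnamed cluster, which the epithelial-like sums left out, its pooled level was 31.9 CPM in OVX and 75.8 in WT. In sums over epithelial-like clusters its fold change was 1.76 and it passed (edgeR adjusted p = 0.0459), and it also passed without WT library 1 (edgeR adjusted p = 0.0476).

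Serpinb1a had 41.4 and 52.2 CPM in OVX against 74.3 and 68.2 in WT (log2 fold change -0.73 ± 0.39, edgeR adjusted p = 0.326). Serpinb6a had 116 and 149 in OVX against 245 and 171 in WT (log2 fold change -0.78 ± 0.42, edgeR adjusted p = 0.328). For both genes every OVX library was below every WT library, but the intervals of the difference, -1.49 to 0.03 for Serpinb1a and -1.59 to 0.04 for Serpinb6a, reach 0. Groups without overlap were common, at 21.7% of tested genes lower and 29.4% higher in OVX. The median log2 fold change was -0.78 over the 5 genes and -0.03 over all genes tested.

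**Figure D1:**
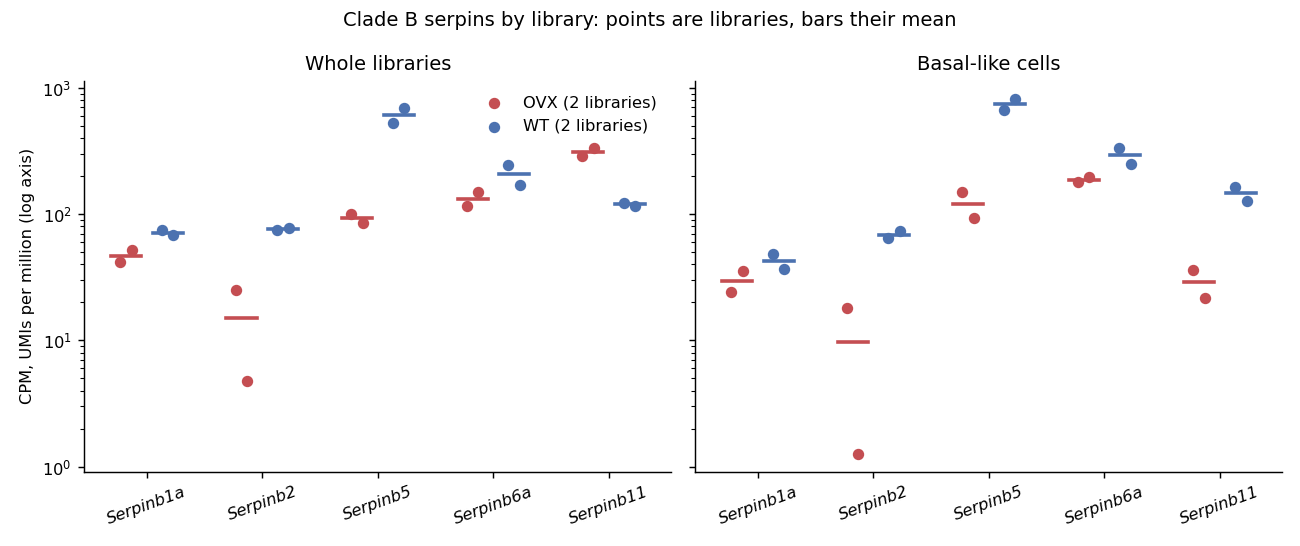
Level of each gene in CPM (log axis) in whole libraries (left) and in basal-like cells (right), with OVX in red left of WT in blue; points are libraries and bars the mean of 2. Serpinb11 lies higher in OVX in whole libraries, at 289.6 and 331 against 123 and 115, and lower in basal-like cells, at 36.0 and 21.5 against 165 and 126.

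In basal-like cells, 3 of the 5 genes were called lower in OVX and 0 higher, where 5.02% of 8267 genes tested were called in either direction, 2.7% lower and 2.32% higher. Serpinb5 stood at 149.8 and 92.4 CPM in OVX basal-like cells against 661 and 818 in WT, a log2 fold change of -2.75 ± 0.51 (edgeR adjusted p = 0.00719). Both OVX libraries again lay below both WT libraries. Serpinb11 stood at 36.0 and 21.5 in OVX against 165 and 126 in WT (log2 fold change -2.55 ± 0.54, edgeR adjusted p = 0.0154). Its direction was therefore opposite to that in whole libraries. The difference between the 2 fits was not itself tested. Serpinb2 had 3 UMIs in 1 OVX library and 1 UMI in the other, or 18.0 and 1.27 CPM, against 64.6 and 73.2 in WT (log2 fold change -3.83 ± 0.83, edgeR adjusted p = 0.0189). Over pooled counts the WT level was 16.02 times the OVX level, with a counting interval of 6.13 to 59.5. Only 1 of 339 cells of OVX library 1 and 1 of 970 cells of OVX library 2 had a UMI. The 3 UMIs thus lay in 1 cell. The interval treats UMIs as independent and leaves out the spread between cells and libraries, so it is too narrow.

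The calls in basal-like cells were lost in some fits, although the size of the difference was mostly kept. Without OVX library 1 the log2 fold change was -3.02 for Serpinb5 (edgeR adjusted p = 0.119) and -2.78 for Serpinb11 (edgeR adjusted p = 0.141). Without OVX library 2 it was -2.47 for Serpinb5 (edgeR adjusted p = 0.415), -2.18 for Serpinb11 (edgeR adjusted p = 0.595) and -2.09 for Serpinb2 (edgeR adjusted p = 0.667). Serpinb2 also lost its call with the stricter cell filter of at least 400 genes and at most 10% mitochondrial UMIs (edgeR adjusted p = 0.148). When basal cells were instead taken one by one from their keratins (a UMI of Krt5, Krt14 or Krt15 and none of Krt1, Krt10, Krt4, Krt13, Krt8 or Krt18), Serpinb11 stood at 156 and 123 CPM in OVX against 136 and 119.7 in WT, which overlap (log2 fold change 0.04, edgeR adjusted p = 0.977). That choice took 177 and 293 cells of the OVX luminal-like cluster. These held 67 of the 79 Serpinb11 UMIs of the keratin-chosen cells in OVX library 1 and 100 of the 117 in OVX library 2.

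Serpinb6a and Serpinb1a were not called in basal-like cells. Serpinb6a had 179.8 and 195 CPM in OVX against 335 and 248 in WT (log2 fold change -0.72 ± 0.46, edgeR adjusted p = 0.421). Serpinb1a had 24.0 and 35.4 in OVX against 48.2 and 36.6 in WT (log2 fold change -0.51 ± 0.52, edgeR adjusted p = 0.633). The OVX values of all 5 genes lay below both WT values, as they did for 23.6% of tested genes. The median log2 fold change was -2.55 over the 5 genes and -0.06 over all genes.

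Within the tissue the 5 genes had different distributions over cell classes, which are described and not tested, since the classes come from the same cells. Serpinb11 averaged 848 ± 101 CPM in OVX luminal-like cells (SD, n = 2 libraries) and 28.7 ± 10.2 in OVX basal-like cells. In WT it averaged 146 ± 27.5 in basal-like, 119.7 ± 11.4 in suprabasal-like and 107 ± 9.44 in proliferating cells, and neighbouring WT classes did not differ beyond their spread. The highest and the lowest of these class levels were thus both in OVX. Luminal-like cells held 91.6% and 96.1% of the Serpinb11 UMIs of the kept cells in the OVX libraries, while they held 31.1% and 40.9% of all UMIs.

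**Figure D2:**
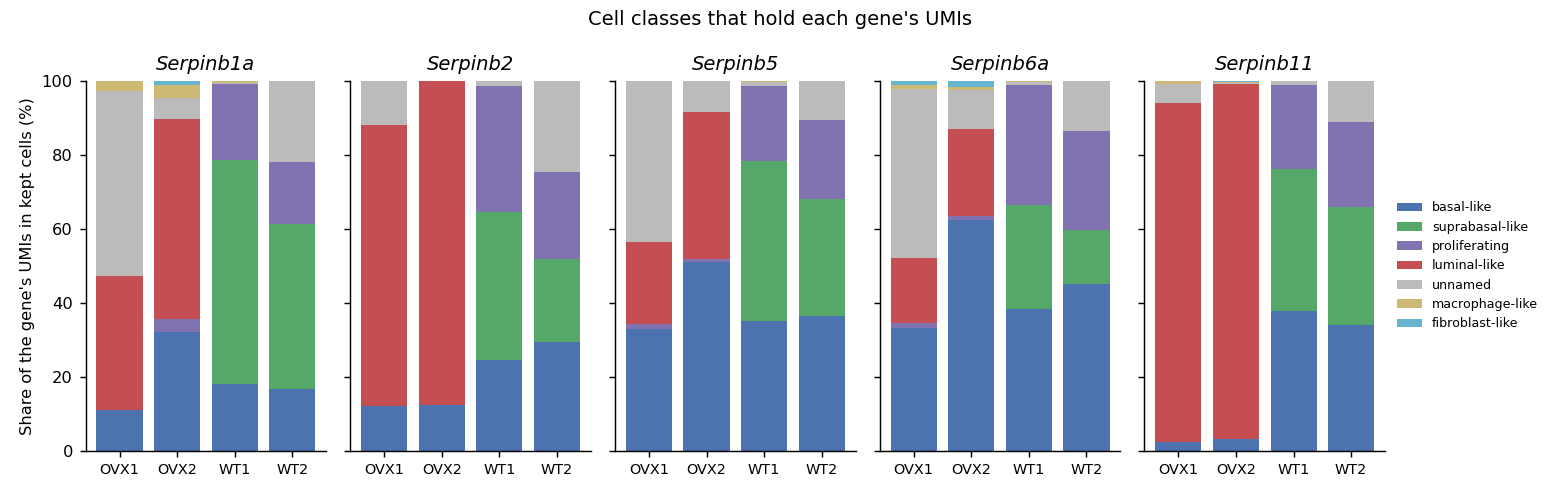
Share of each gene's UMIs in kept cells (%, stacked to 100) that fell in each cell class, by library, OVX libraries left of WT. Luminal-like cells (red) held 91.6% and 96.1% of Serpinb11 UMIs in OVX, whereas in WT the UMIs of all 5 genes were spread over basal-like, suprabasal-like and proliferating cells.

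Serpinb5 was low in both OVX classes and high in all 3 WT classes. It averaged 121 ± 40.6 CPM in basal-like and 76.7 ± 11.9 in luminal-like OVX cells, against 739.6 ± 111 in basal-like, 652 ± 155 in suprabasal-like and 511 ± 182 in proliferating WT cells. The SD ranges of neighbouring WT classes overlapped, and so did those of the 2 OVX classes. Within each library the order was the same, with basal-like above suprabasal-like above proliferating cells in both WT libraries and basal-like above luminal-like cells in both OVX libraries. The WT order of classes did not hold cluster by cluster. Pooled over the WT libraries, suprabasal-like cluster 7 stood at 881 CPM, above basal-like clusters 5 and 6 at 673 and 773. The suprabasal-like clusters 4 and 8 were lower, at 351 and 505. Serpinb2 averaged 43.4 ± 46.6 in luminal-like and 9.62 ± 11.8 in basal-like OVX cells, with 76.4 and 10.5 in luminal-like cells of OVX library 1 and library 2. In WT it averaged 83.8 ± 8.73 in proliferating, 68.9 ± 6.02 in basal-like and 65.6 ± 6.30 in suprabasal-like cells. The luminal-like level of Serpinb2 thus rested on 1 OVX library.

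Serpinb1a and Serpinb6a ran in opposite directions across the layers. Serpinb1a averaged 61.2 ± 12.7 CPM in luminal-like and 29.7 ± 8.10 in basal-like OVX cells, and 106 ± 0.426 in suprabasal-like, 51.7 ± 4.02 in proliferating and 42.4 ± 8.20 in basal-like WT cells. In each group it was higher in the upper than in the basal-like cells in both libraries. Serpinb6a averaged 187 ± 10.6 in basal-like and 75.5 ± 15.8 in luminal-like OVX cells, and 292 ± 62.0 in basal-like, 240.3 ± 63.7 in proliferating and 125 ± 55.1 in suprabasal-like WT cells. For Serpinb6a the basal-like cells were higher in both libraries of each group.

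A finer clustering (Leiden resolution 1.2) gave 2 OVX clusters with high Serpinb11. The larger was named suprabasal-like, with 354 and 607 cells and Serpinb11 at 654 and 625 CPM. The smaller, of 69 and 97 cells, was named luminal-like and had Serpinb11 at 1939 and 1656. In the smaller one Serpinb2 stood at 264 and 32.7, the first from 12 UMIs and the second from 3. In WT, a suprabasal-like cluster of 477 cells led by Sprr1a and Krt13 had the highest pooled Serpinb1a, at 160.4 CPM, and Serpinb2, at 146, among the WT clusters in the plot by cluster.

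**Figure D3:**
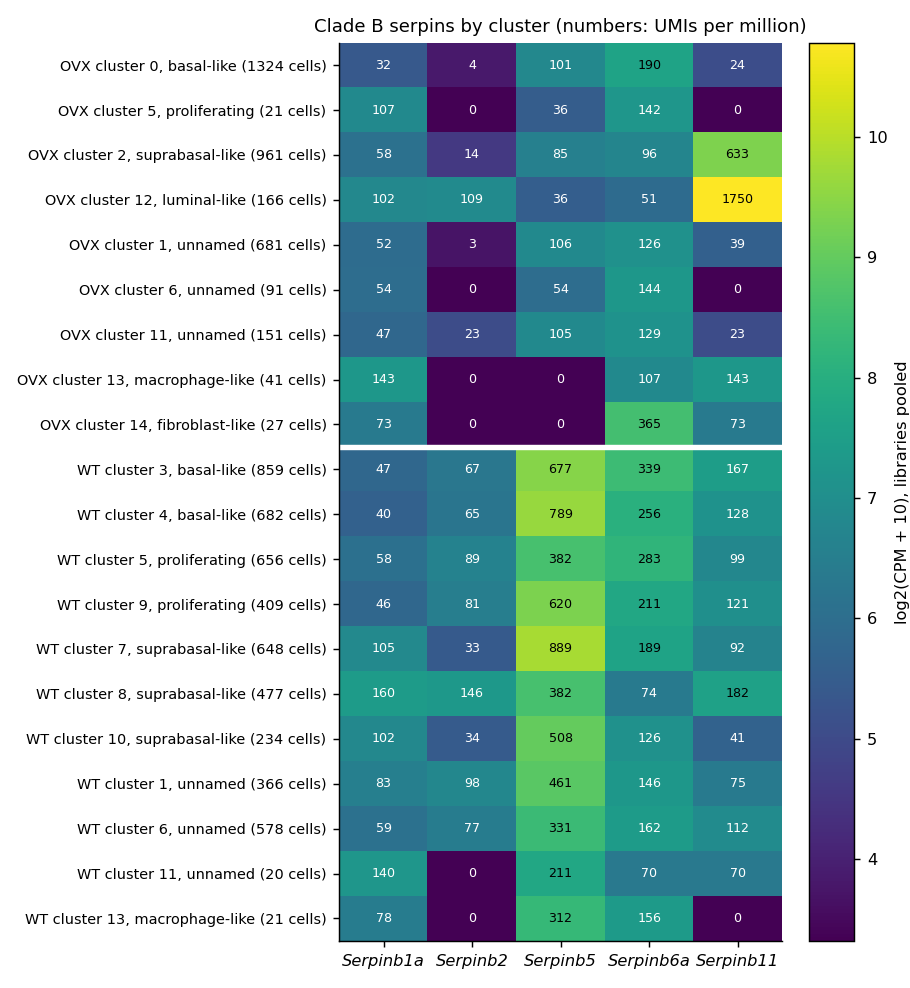
Pooled level of each gene in each cluster at Leiden resolution 1.2, OVX clusters above WT clusters; colour is log2(CPM + 10) and the printed numbers are CPM. Serpinb5 is 382 or higher in every named epithelial WT cluster and 101 or lower in every named OVX cluster, and Serpinb11 peaks in OVX clusters 12 and 2.

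The share of cells with a UMI was read after each cell was thinned to 400 UMIs, because depth differed between libraries. Thinning left out 256 OVX and 27 WT cells of the classes. With 2 libraries against 2 the smallest exact permutation p (two-sided) is 0.333, so no share can pass a threshold of 0.05. Serpinb5 was found in 5.19% and 3.69% of OVX basal-like cells, with exact binomial intervals of 2.62 to 9.09% and 2.58 to 5.10%. In WT basal-like cells it was found in 22.4% and 26.1%, with intervals of 19.8 to 25.2% and 22.7 to 29.7%. The intervals of the groups were far apart (exact permutation p = 0.333). They cover counting error only.

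Serpinb11 was found in 23.9% and 19.6% of OVX luminal-like cells, and in 1.42% and 0.738% of OVX basal-like cells. In WT it was found in 6.59% and 4.71% of basal-like and in 4.65% and 4.71% of suprabasal-like cells. In macrophage-like cells, which should lack it, 1 of 34 OVX cells (2.94%) and 0 of 19 WT cells had a UMI at the same depth, and 0 of 19 allows up to 15.8%. The OVX basal-like shares lay below 2.94% and the WT shares below 15.8%. With so few macrophage-like cells, neither can be told from background or placed above it. Barcodes that failed the filter held Serpinb11 at 193 and 354 CPM in OVX, above the basal-like level. The part of free RNA in the OVX and WT shares was not tested.

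Serpinb2 was found in 1 of 212 and 0 of 948 OVX basal-like cells, the second of which allows a share of cells with a UMI of up to 0.316% (3 counts; the exact binomial limit is 0.388%) at this depth, and in 2.44% and 3.61% of WT basal-like cells. In macrophage-like cells it was in 0 of 34 and 0 of 19. Serpinb6a was found in 6.13% and 7.91% of OVX basal-like cells against 11.9% and 9.26% in WT, and in 3.27% and 3.07% of OVX luminal-like cells against 5.03% and 3.77% of WT suprabasal-like cells. Macrophage-like cells had Serpinb6a in 3 of 34 OVX and 2 of 19 WT cells, so no class free of it was found. Serpinb1a was found in 0.943% and 1.27% of OVX basal-like cells and in 2.02% and 1.26% in WT, which overlap (exact permutation p = 0.667). Its shares were 2.29% and 2.78% in OVX luminal-like and 3.95% and 4.33% in WT suprabasal-like cells.

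Without thinning, when median depth was 446 and 716 UMIs in OVX basal-like cells and 1490 and 771 in WT, Serpinb5 was in 7.04 ± 0.049% of OVX and 54.7 ± 9.72% of WT basal-like cells. Serpinb11 was in 34.5 ± 1.17% of OVX luminal-like cells, and in 1.66 ± 0.158% of OVX against 14.4 ± 7.33% of WT basal-like cells. The macrophage-like cells had median depths of 424 and 582 UMIs in OVX and 1060 and 496 in WT. Before thinning these 21 WT cells held 8 Serpinb5 UMIs, or 312 CPM, while the 41 OVX ones held 0. The part of free RNA or doublets in the WT level of Serpinb5 was not tested.

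**Figure D4:**
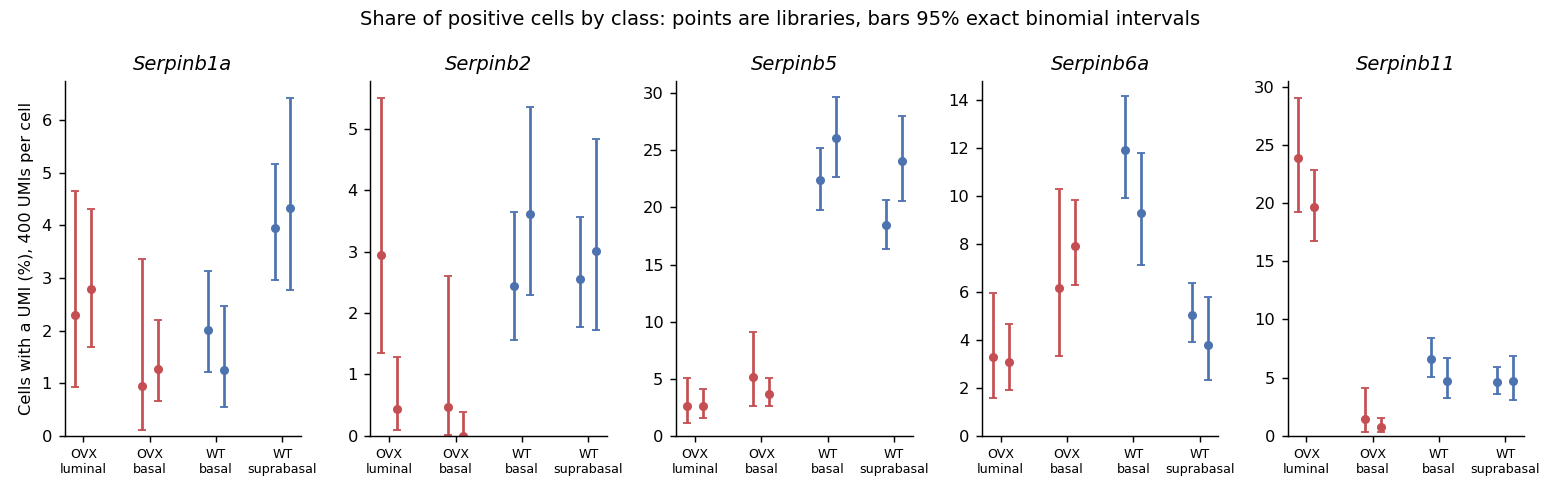
Share of cells (%) with a UMI of each gene after thinning to 400 UMIs per cell, by class, OVX classes (red) left of WT classes (blue); points are libraries and bars exact 95% binomial intervals, with a separate vertical scale for each gene. Serpinb5 separates OVX from WT in basal cells, and Serpinb11 peaks in OVX luminal cells at 23.9% and 19.6%.

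Of the other 14 clade B rows, 9 had at least 10 UMIs in all and 5 fewer. In whole libraries 5 of them were tested and 0 called (edgeR, adjusted p under 0.05), and in basal-like cells 4 were tested and 0 called. Serpinb10, a neighbour of Serpinb2 first known from blood-forming cells, had 540 and 799 CPM in OVX against 421 and 216 in WT (log2 fold change 0.94, edgeR adjusted p = 0.312). GENCODE vM21 lists Serpinb10 as a polymorphic pseudogene, not as a protein-coding gene. Serpinb7, known in the skin barrier, had 78.7 and 60.5 in OVX against 52.5 and 83.7 in WT, which overlap. Serpinb8 had 53.5 and 102 in OVX against 103 and 89.9 in WT, and these overlap in part. Serpinb9, an inhibitor of granzyme B, had 26.2 and 16.02 in OVX against 9.24 and 3.10 in WT (edgeR adjusted p = 0.190), and Serpinb6b had 10.1 in both OVX libraries against 3.93 and 2.07 in WT (edgeR adjusted p = 0.182). The macrophage marker sums, given above, were also higher in OVX. Their part in the Serpinb9 and Serpinb6b values was not tested.

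Serpinb3a, a member of the squamous cell carcinoma antigen family, had 0 UMIs in both OVX libraries and 20 and 9 in WT, and was at least 3.33-fold lower against a floor of 3 counts over the OVX group. The lower limit of the exact counting interval of that ratio is 2.54. Serpinb1b, Serpinb3c and Serpinb6c had 23, 16 and 10 UMIs over all libraries. By position, 6 of the 10 chromosome 1 rows were tested, with 1 lower in whole libraries, where 3.06% of all genes were, and 3 lower in basal-like cells, where 2.7% of all genes were. These are the calls among the 5 genes given above. Of the 9 chromosome 13 rows, 4 were tested in whole libraries and 3 in basal-like cells, with 0 called. Serpinb7, Serpinb10 and Serpinb8, next to the called genes on chromosome 1 and with TGANTCA in their windows as well, were not called.

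**Figure D5:**
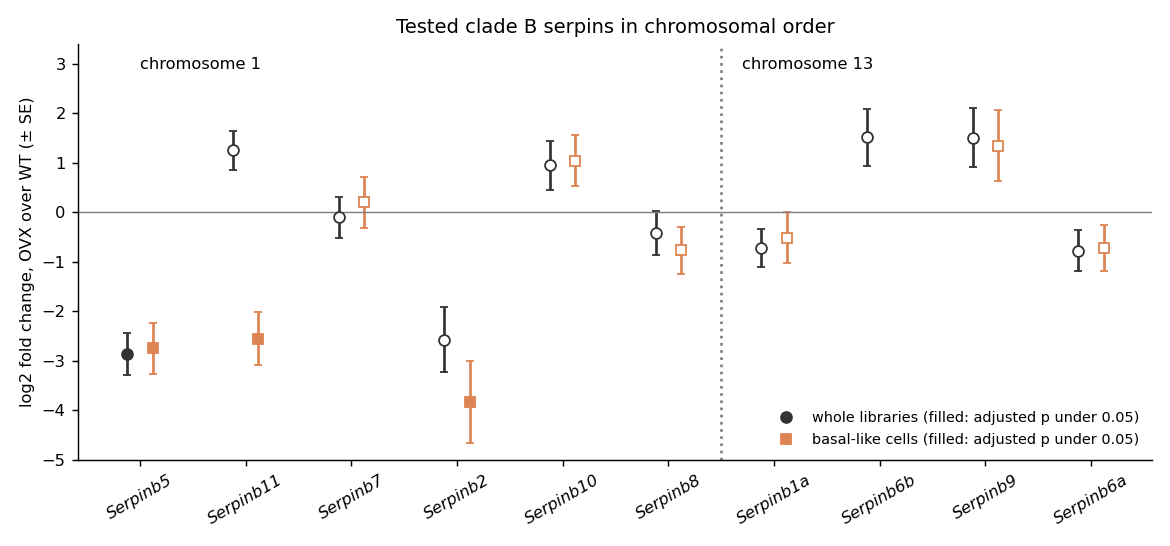
Log2 fold change of OVX over WT (± SE) for the tested clade B genes in chromosomal order, in whole libraries (circles) and basal-like cells (squares); filled symbols have an adjusted p under 0.05. The filled symbols are Serpinb5 in both, and Serpinb11 and Serpinb2 in basal-like cells, all below 0 and all on chromosome 1.

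Proteases and partners that clade B serpins are known to act on were read from a fixed list of 25 genes, 16 of which were in the files. Of the 10 tested in whole libraries, 1 was higher and 1 lower in OVX, where 3.22% of all genes tested were higher and 3.06% lower. Ctss, a lysosomal cathepsin of antigen-presenting cells, stood at 43.4 and 57.0 CPM in OVX against 8.21 and 5.17 in WT (log2 fold change 2.73, edgeR adjusted p = 0.0139). The macrophage marker sum moved with it, and its part was not tested. Tmprss11a, a membrane serine protease of squamous epithelia, had 0 and 1 UMI in OVX against 36 and 26 in WT (edgeR adjusted p = 0.0375), and its pooled level in WT was 21.3 times that in OVX, with a counting interval of 3.69 to 856. Of the 7 tested in basal-like cells, 1 was higher in OVX, where 2.32% of all genes tested were. This was Klk8, a kallikrein, at 53.9 and 41.8 against 8.54 and 9.98 in WT (edgeR adjusted p = 0.0416). Plau, which encodes the urokinase that Serpinb2 inhibits, had 11.1 and 13.7 in OVX against 21.9 and 32.0 in WT and was not called (edgeR adjusted p = 0.170). The neutrophil proteases Elane, Prtn3 and Ctsg were not among the 16.

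The genes most like each serpin were ranked by Pearson correlation of log2(CPM + 10) over 21 points, each a cluster within a library, among 11535 genes. These points share libraries and depth, so the values are a description. Serpinb5 was most like Txn1 (thioredoxin, r = 0.966), Sem1 (r = 0.963) and Fam162a (r = 0.960). Serpinb6a was most like Itga6 (r = 0.836), an integrin of basal cells, Sparc and Tmpo. Serpinb11 was most like Galnt6 (r = 0.792), which starts mucin-type glycosylation, Clu and Serpina9. Serpinb2 was most like Psmb1 (r = 0.885), Nhp2 and Cib1, and Serpinb1a was most like Ankrd13a (r = 0.842), Ptpmt1 and Pdlim2. Between the 5 genes the highest value was 0.68, for Serpinb2 with Serpinb5, and the lowest -0.35, for Serpinb1a with Serpinb6a.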

How the data were processed

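The authors deposited raw counts of UMIs, genes by barcodes, in a matrix for each library. Per the submitters' processing notes the build was mm10 and Seurat 2 was used. Aligner, annotation and barcode rule were not given in the sources used here. Counts were summed per library over all barcodes or over basal-like cells and tested with edgeR 4.0.16 (TMM, filterByExpr, quasi-likelihood F-test, Benjamini-Hochberg over all genes, threshold 0.05; R 4.3.3), with DESeq2 1.42.0 as an alternative. The edgeR script was tested on simulated counts, with a spread between libraries fixed in advance. At a 2-fold change it called 10 of 49 changed genes in whole libraries and 5 of 50 in basal-like cells. At a 4-fold change it called 40 of 48 and 41 of 48. A gene not called here may therefore still differ by 2-fold.

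Clusters came from 2000 variable genes without Serpinb genes, 30 principal components, 15 neighbours and Leiden resolution 0.8 (scanpy 1.11.5, leidenalg 0.10.2), without integration. A cluster took the class with most raised markers (log2 fold of at least 0.5 over other cells of its group, detected in at least 5%, at least 3 markers), with suprabasal and cornified markers both giving the name suprabasal-like, and a tie between names left it unnamed. WT cluster 4 was thus named from 3 suprabasal and 3 cornified markers. This rule was set after clusters were seen. No doublet caller was run and doublets were not removed. Names follow a fixed rule: the 5 members, clade B rows with at least 10 UMIs, the protease list and the 3 most like genes. Members and lists were chosen with earlier results of these data known. Libraries of a group differed by more than counting noise (chi-square per degree of freedom 7.53 in OVX and 45.8 in WT) and so were not 1 library deposited in duplicate. This does not tell separate pools from repeat runs of 1 pool.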

Additional observations from a re-analysis of the deposited data

How the results depend on the processing

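Genes called in whole libraries numbered 725, between 587 and 885 with RLE size factors, DESeq2, a replicate block, filtered cells or epithelial-like clusters, and 1554 with no filter on low counts. In basal-like cells 415 were called, 638 with no filter and 266 with the stricter cell filter. Leaving out OVX library 1, OVX library 2, WT library 1 or WT library 2 gave 411, 339, 1888 and 2195 genes in whole libraries and 213, 81, 1571 and 1287 in basal-like cells. Library numbers did not pair samples (correlation of same-numbered deviations -0.57 in whole libraries and -0.38 in basal-like cells); with the replicate block 619 and 277 genes were called, and Serpinb2 passed in whole libraries (edgeR adjusted p = 0.00437). Pairing WT library 1 with OVX library 2, chosen after seeing the data, gave 3551 and 1690. Counting the unnamed cluster as basal-like, also chosen after seeing the data, gave 281 and kept the 3 calls among the serpins.

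The direction of Serpinb1a, Serpinb2, Serpinb5 and Serpinb6a held under every alternative fit run. In whole libraries Serpinb5 had log2 fold changes of -2.99 to -2.84 with all libraries and of -3.04 to -2.71 with 1 left out, and lost its call without either OVX library. Serpinb11 in basal-like cells had a log2 fold change of 0.038 (edgeR adjusted p = 0.977), so no detectable difference, with classes from single-cell keratins, where cells of the luminal-like cluster held most of its OVX UMIs. The difference in Serpinb6a share between OVX and WT basal-like cells turned to 1.11 percentage points after thinning to 800 UMIs, which left 25 cells of OVX library 1, 6 of them with a UMI. The log2 ratio of Serpinb2 between WT suprabasal-like and basal-like cells turned to 0.069 at resolution 1.2; the cause was not tested. Members whose basal-like shares in both OVX libraries lay below both WT libraries numbered 4 or 5 of 5 under each depth. For shares this was not counted over all genes. For levels in basal-like cells, 23.6% of tested genes were lower in OVX without overlap. In OVX basal-like cells Serpinb2 rests on few UMIs. These are 3 UMIs in 1 of 339 cells of OVX library 1 and 1 UMI in 1 of 970 cells of OVX library 2.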

Other observations

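Serpinb10 was not among the 5 genes but, like Serpinb6a, was higher in basal-like than in upper cells. It stood at 863 and 1186 CPM in OVX basal-like and 422 and 475 in OVX luminal-like cells, against 635 and 304 in basal-like and 227 and 103 in suprabasal-like WT cells. In each library that held both layers the basal-like level was the higher one. Serpinb7 had the same order at this clustering, at 174 and 79.7 in OVX basal-like and 104 and 53.8 in OVX luminal-like cells, against 82.3 and 115 in basal-like and 27.7 and 37.8 in suprabasal-like WT cells. At the finer clustering the OVX upper cells split for Serpinb7, with 485 and 283 in the luminal-like cluster and 18.5 and 18.7 in the suprabasal-like one, against 172 and 78.8 in the basal-like one. These levels are descriptions without a test. Serpinb10 overlaps Serpinb2 on the same strand.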
